A study of Mus musculus with 4 samples.

Results

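The nuclear genes of the mitochondrial respiratory chain and ATP synthase were examined in mouse lineage-negative bone marrow cells, the immature fraction left once cells with markers of mature blood lineages are removed. Members were all probes whose gene symbol on the array starts with Nduf, Uqcr, Sdh followed by a to d, Cox4 to Cox8 or Atp5, pseudogenes excepted, which gave 106 probes for 84 genes among 26512 probes in all. A probe counted as detected where its detection p was under 0.05 on 2 or more of the 4 arrays. That held for 96 of the 106 probes, which stand for 77 of the 84 genes, against 14178 detected probes on the whole array. The FLT3-ITD group was 2 samples of wild-type (WT) cells after 48 h of signalling from FLT3-ITD, the internal tandem duplication form of the receptor tyrosine kinase FLT3 that occurs in acute myeloid leukaemia. The pMIG group was 2 samples of wild-type cells with the empty vector. No time was recorded for the pMIG samples, so whether the groups were matched in time cannot be told. How the constructs were delivered, and whether the replicates came from separate animals or cultures, is not stated in the labels, and a p-value here reflects only how far these samples spread, which may be technical.

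The respiratory chain is a set of protein complexes in the inner mitochondrial membrane. Complex I takes electrons from NADH and complex II takes them from succinate. Complex III passes them on to cytochrome c, and complex IV hands them to oxygen. The protons pumped on the way drive complex V, the ATP synthase. Most subunits are encoded in the nucleus, as are all genes described here, and a smaller number in mitochondrial DNA, for which no probe was listed under a symbol starting with mt-. In blood, leukaemic stem cells are known to depend on oxidative phosphorylation.

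Each value below is the normalized log2 signal of a probe, and each difference is FLT3-ITD minus pMIG on that log2 scale. Detected probes made up between 51.5% and 53.5% of each array, with median raw intensities of 103.1 and 105.9 in FLT3-ITD, against 107.9 and 103.7 in pMIG. The cell type labels were set against marker genes. Of the stem and progenitor markers, 4 of the 5 with a probe were detected, Flt3 being the exception. Of the genes listed for mature lineages, 2 of the 5 with a probe were detected, namely Itgam and Ptprc, and the T cell genes Cd3e, Cd4 and Cd8a were not. Ptprc is not particular to mature cells, so its signal does not show that they were present. Neutrophil granule genes were detected in 6 of 6 cases, with a summed signal of 16.25 to 16.29 on the FLT3-ITD arrays, against 16.21 to 16.22 on the pMIG arrays, so transcripts of that lineage were present in all samples. Among them Mmp9 (0.92) and Lcn2 (0.40) were higher in FLT3-ITD, Camp (-0.28) and Elane (-0.24) lower, and Ltf (0.07) and Ngp (0.03) near 0. Summed signals did not overlap between the groups for any of the marker lists. With 2 arrays a group 33.3% would be apart by chance, and the groups were apart in 50.6% of all genes tested. The sums were taken on linear signal, so the brightest genes of a list weigh most. The mast cell and basophil list (5 of 5 detected) had a summed signal of 12.24 to 12.28 on the FLT3-ITD arrays, against 12.98 to 13.03 on the pMIG arrays (log2). The stem and progenitor list summed to 13.94 to 13.97 on the FLT3-ITD arrays, against 14.27 to 14.42 on the pMIG arrays. In it Mpo (-0.43), by far the brightest, Cd34 (-0.62) and Myb (-0.56) were lower in FLT3-ITD, and Gata2 (-0.0031) was near 0. The B lymphoid list (3 of the 4 with a probe detected) summed to 10.41 to 10.46 on the FLT3-ITD arrays, against 9.54 on both pMIG arrays, and its transcription factor Pax5 was not detected. The monocyte and dendritic list (5 of 6 detected) summed to 13.96 to 14.04 on the FLT3-ITD arrays, against 13.42 to 13.50 on the pMIG arrays. In that list the MHC class II pathway genes Cd74 (1.32) and H2-Ab1 (1.27) differed most, while Ly6c1 (-0.12), Itgax (-0.08) and Csf1r (0.0036) were near 0. The megakaryocyte list (6 of 6 detected) summed to 10.73 to 10.91 on the FLT3-ITD arrays, against 11.07 to 11.18 on the pMIG arrays. Itga2b was higher in FLT3-ITD (0.34), and the others of that list had lower means, from -0.24 for Pf4, which overlapped between the groups, to -1.08 for Vwf. The stroma list (2 of 3 detected) summed to 9.03 to 9.10 on the FLT3-ITD arrays, against 8.61 to 8.67 on the pMIG arrays. That sum was mostly Pecam1 (mean 8.97 in FLT3-ITD and 8.53 in pMIG). Cxcl12 was dim (mean 5.16 in FLT3-ITD and 4.91 in pMIG) and Col1a1 was not detected, so the sum does not show a shift of stroma as a whole. The mature lineage list, here Itgam and Ptprc alone, summed to 7.55 to 7.65 on the FLT3-ITD arrays, against 7.30 to 7.37 on the pMIG arrays. The erythroid list (6 of the 7 with a probe detected) summed to 12.06 to 12.10 on the FLT3-ITD arrays, against 11.93 to 12.05 on the pMIG arrays. Its genes were mixed in direction. The globin genes Hba-a1 (1.29) and Hbb-b1 (0.37) were higher in FLT3-ITD, while Epor (-0.64) and Klf1 (-0.36) were lower. Gata1 (-0.26) overlapped between the groups, and Tfrc (-0.04) was near 0. Of all these marker genes, Vpreb3 of the B lymphoid list alone passed an adjusted p of 0.05 in limma (0.0497), where 0.201% of all genes tested passed. The part of these shifts in the values below was not tested, and in bulk RNA fewer cells of a type and less RNA per cell cannot be told apart.

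Across the 77 detected genes, most differences between FLT3-ITD and pMIG cells were small. The median difference was -0.05, against -0.02 over all 9948 genes tested, and the interquartile range of the members ran between -0.18 and 0.05. The per-array median of the members was 10.99 and 10.98 on the FLT3-ITD arrays, against 10.98 and 11.02 on the pMIG arrays. No member reached a difference of 1 in either direction. The extremes were Cox6b2 at -0.70 and Cox6a2 at 0.55, both of them tissue-restricted subunits of complex IV.

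In limma, 0 of the 77 members passed an adjusted p of 0.05, where 0.201% of all genes tested passed. At an unadjusted p under 0.05 there were 8 members (10.4%), against 18.0% of all genes. Of these 6 were lower, where 9.09% of all genes were, and 2 higher, where 8.93% were. With a variance trend and robust fit, an alternative that lets the assumed spread depend on signal, 7 of the 77 passed (9.09%), against 10.5% of all genes. The 6 lower in FLT3-ITD were Ndufb9, Ndufb8, Ndufa1, Cox6b2, Cox6c and Atp5h, where 5.28% of all genes were lower, and the 1 higher was Atp5d, where 5.19% were higher. Counted over both directions, the shares of members called lay near or below those of the whole array. In 40 members (51.9%) both FLT3-ITD arrays lay beyond both pMIG arrays, against 50.6% of all genes. Of these 27 were lower in FLT3-ITD (35.1%, against 26.8% of all genes) and 13 higher (16.9%, against 23.8%). These shares varied with signal, by a split made after the values were seen. At a mean signal of 10 or more, 33.3% of members were apart lower and 20.8% higher, against 34.1% and 26.8% of all genes there. Under that signal it was 37.9% and 10.3% of members, against 25.4% and 23.2% of all genes there. With 2 arrays a group an exact test cannot go below p = 0.333, so every call rests on spread shared between genes. The 95% interval of a member's difference extended by 0.31 on either side at the median, and a difference smaller than its own interval could not be told from 0 in limma.

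**Figure D1:**
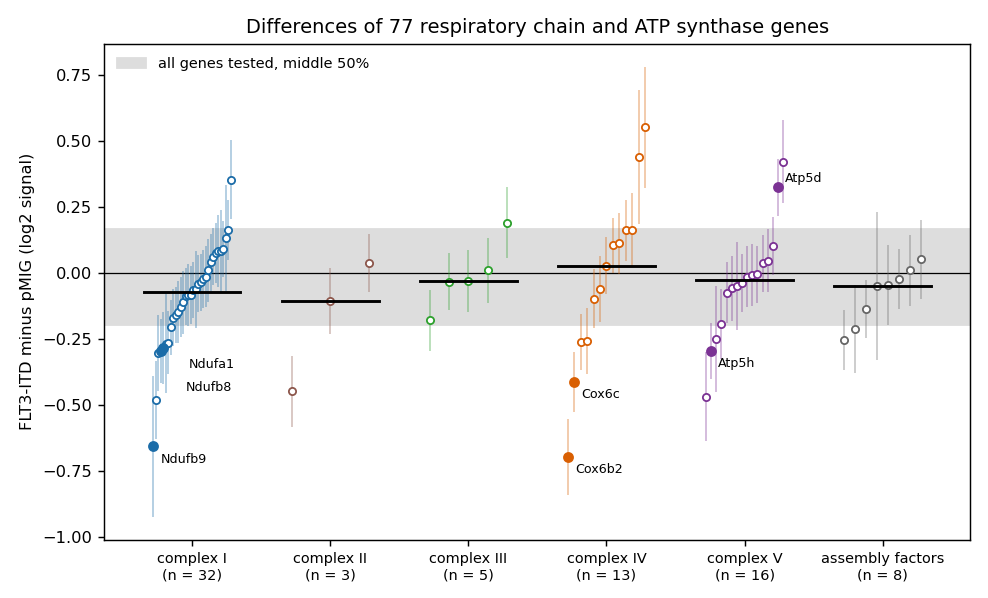
The vertical axis is the difference in log2 signal, FLT3-ITD minus pMIG, of each of the 77 detected genes, grouped by complex along the horizontal axis and ordered by value. Circles are genes with their standard error from limma, filled and named where the variance trend and robust fit called them, black bars are medians, and the grey band is the interquartile range of all 9948 genes tested. Medians lie between -0.11 and 0.03 and most genes lie inside the grey band.

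Complex I, the NADH dehydrogenase, had 32 detected genes with a median difference of -0.07. None passed in limma, and 3 passed with the variance trend and robust fit (9.38%, against 10.5% of all genes), all lower (5.28% of all genes). Groups were apart in 15 genes lower (46.9%, against 26.8% of all genes) and 4 higher (12.5%, against 23.8%). The median signal of complex I was 11.35, and of all genes with a mean signal of 10 or more 34.1% were apart lower and 26.8% higher. The core subunits include those that carry the flavin and iron-sulfur clusters. For the 5 core genes detected, differences ran from -0.17 for Ndufv1, the NADH-binding subunit, to 0.08 for Ndufs3. Ndufv1 read 12.22 and 12.16 on the FLT3-ITD arrays, against 12.33 and 12.39 on the pMIG arrays (adjusted p = 0.481 in limma). The core gene Ndufs1 had a probe that was not detected on any array.

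The 27 detected accessory subunits, which surround the core and are needed for its assembly and stability, had a median of -0.08. Ndufb8, a membrane arm subunit, read 12.89 and 12.72 on the FLT3-ITD arrays, against 13.14 and 13.06 on the pMIG arrays. Both FLT3-ITD arrays were lower, with a difference of -0.30 (SE 0.12, adjusted p = 0.304 in limma, and 0.00499 with the variance trend and robust fit). Ndufa1, also of the membrane arm, averaged 11.51 ± 0.07 in FLT3-ITD and 11.79 ± 0.17 in pMIG (SD, n = 2 each), and passed with the variance trend and robust fit (adjusted p = 0.0224) but not in limma (adjusted p = 0.355). Ndufb9 had the lowest value of complex I. It read 6.77 and 6.50 on the FLT3-ITD arrays, against 7.64 and 6.94 on the pMIG arrays. The FLT3-ITD arrays were both lower, but the pMIG arrays lay far apart from each other, and the difference was -0.66 (SE 0.27, adjusted p = 0.302 in limma, and 0.0242 with the variance trend and robust fit). Ndufb4 differed by -0.48 and Ndufab1, the mitochondrial acyl carrier protein that also serves as a complex I subunit, by 0.35. Neither passed in either fit. Ndufa13 averaged 13.31 ± 0.06 in FLT3-ITD and 13.35 ± 0.02 in pMIG (SD, n = 2 each), with no separation of the groups.

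Complex II, the succinate dehydrogenase that also serves the citric acid cycle, was represented by 3 detected genes, and no probe was listed for Sdha. Sdhd, one of the membrane anchors, read 7.30 and 7.13 on the FLT3-ITD arrays, against 7.56 and 7.76 on the pMIG arrays. The groups did not overlap, and the difference of -0.45 did not pass (95% interval -0.81 to -0.09, adjusted p = 0.218 in limma, and 0.0543 with the variance trend and robust fit). The other anchor, Sdhc, differed by -0.11, and the iron-sulfur subunit Sdhb by 0.04, with overlapping groups for both.

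Complex III had 5 detected genes with differences of -0.18 to 0.19. Uqcr11, a small accessory subunit, differed by -0.18 and Uqcrc1, a large matrix-side core protein, by 0.19, each with the groups apart. Its partner core protein Uqcrc2 differed by -0.03 (95% interval -0.32 to 0.25). Uqcrh, which helps cytochrome c dock, differed by -0.03, and Uqcr10 by 0.01. The probes of Uqcrfs1, the Rieske iron-sulfur protein, and of Uqcrq were each detected on 1 array and were not tested.

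Complex IV, the cytochrome c oxidase, had the widest spread of differences of the 5 complexes (SD 0.34 across genes). Its 13 detected genes had a median of 0.03 and ran from -0.70 to 0.55. The groups were apart in 5 genes lower and 5 higher (38.5% each way, against 26.8% lower and 23.8% higher of all genes). The median signal of complex IV was 11.40, and of all genes with a mean signal of 10 or more 34.1% were apart lower and 26.8% higher. The widely expressed subunits Cox4i1, Cox5a and Cox5b, which surround the catalytic centre, passed in neither fit. Cox4i1 read 13.71 and 13.61 on the FLT3-ITD arrays, against 13.73 and 13.78 on the pMIG arrays, a difference of -0.10. Cox5a differed by 0.10 and Cox5b by 0.16, and Ndufa4, first assigned to complex I and now placed in complex IV, by -0.06. Cox6c, a small membrane subunit, stood apart from these. It read 11.12 and 11.26 on the FLT3-ITD arrays, against 11.59 and 11.62 on the pMIG arrays, so that both FLT3-ITD arrays were below both pMIG arrays by more than the replicates differed. The difference was -0.41 (SE 0.11, adjusted p = 0.193 in limma, and 0.00052 with the variance trend and robust fit). Cox7a2 differed by -0.26, as did Cox7b, without passing in either fit.

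Several complex IV subunits exist as a common form and a form restricted to certain tissues. Cox6b2, the form known from testis, read 6.90 and 6.74 on the FLT3-ITD arrays, against 7.39 and 7.65 on the pMIG arrays, with raw intensities of 191.3 and 191.5 against 268.8 and 266.3. The FLT3-ITD signal was 0.617 times that of pMIG (log2 difference -0.70, SE 0.15, adjusted p = 0.157 in limma, and 0.00421 with the variance trend and robust fit). A second Cox6b2 probe was detected on 1 array and did not show this, at 4.37 and 4.77 on the FLT3-ITD arrays, against 4.29 and 4.33 on the pMIG arrays. Cox6b1, the common form, differed by 0.11 (0.04 on another probe). Cox6a2, the heart and skeletal muscle form, read 7.37 and 7.04 on the FLT3-ITD arrays, against 6.92 and 6.39 on the pMIG arrays. Both FLT3-ITD arrays were higher, and the difference of 0.55 did not pass (95% interval -0.05 to 1.16, adjusted p = 0.307 in limma, and 0.0551 with the variance trend and robust fit). Its common counterpart Cox6a1 differed by 0.16 (0.15 on another probe). Cox7a1, also a muscle form, differed by 0.44 with overlapping groups. Cox7a2l, a relative of Cox7a2 that joins complexes III and IV, differed by 0.03. The probes of Cox4i2 and Cox7b2 were detected on 1 array, and those of Cox8b and Cox8c on none. Whether a restricted form differed from its common counterpart was not tested.

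**Figure D2:**
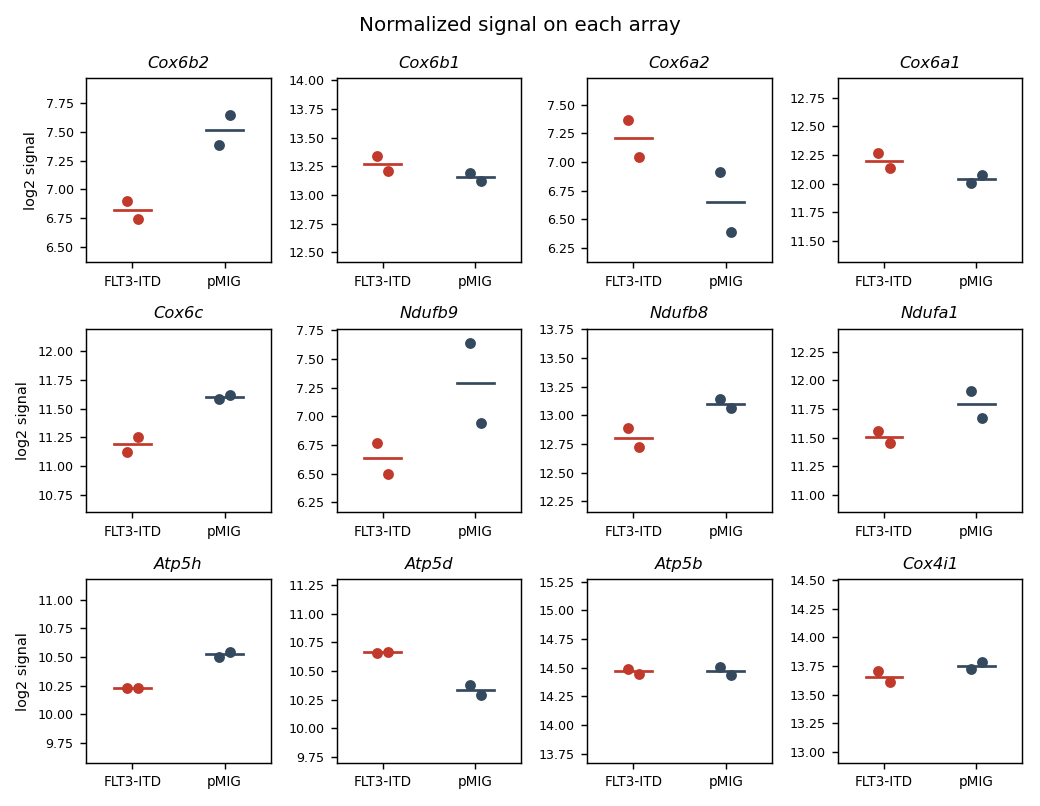
The vertical axis of each panel is the normalized log2 signal and spans the same range in every panel, with the FLT3-ITD arrays in red on the left and the pMIG arrays in dark blue on the right. Points are the 2 arrays of a group and bars are their mean. Cox6b2, Cox6c, Ndufb9, Ndufb8, Ndufa1 and Atp5h are lower in FLT3-ITD and Atp5d higher, while Atp5b overlaps between the groups.

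Complex V, the ATP synthase, had 16 detected genes with a median of -0.03. Of these 3 were apart lower and 3 higher (18.8% each way, against 26.8% of all genes lower and 23.8% higher). Atp5b, the catalytic beta subunit of the soluble head, read 14.49 and 14.45 on the FLT3-ITD arrays, against 14.51 and 14.44 on the pMIG arrays, a difference of -0.0040 with a 95% interval of -0.29 to 0.28. The alpha subunit gene Atp5a1 differed by -0.25 with overlapping groups, and Atp5c1, the rotating gamma shaft, by -0.19. The small subunits at the foot of that shaft gave opposite values. Atp5d, the delta subunit, read 10.66 on both FLT3-ITD arrays, against 10.38 and 10.29 on the pMIG arrays (difference 0.32, SE 0.11, adjusted p = 0.240 in limma, and 0.011 with the variance trend and robust fit). Atp5e, the epsilon subunit, read 6.46 and 6.25 on the FLT3-ITD arrays, against 6.66 and 6.99 on the pMIG arrays, a difference of -0.47 that passed in neither fit.

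In the membrane part and stalk of the enzyme, Atp5h read 10.23 on both FLT3-ITD arrays, against 10.50 and 10.55 on the pMIG arrays. This peripheral stalk subunit passed with the variance trend and robust fit (adjusted p = 0.0242), but not in limma (difference -0.29, SE 0.11, adjusted p = 0.261). Atp5o, which joins the stalk to the head, differed by -0.05. Atp5g2 and Atp5g3, which encode the same mature ring subunit, differed by 0.04 and -0.01, and no probe was listed for Atp5g1. Atp5k, a membrane subunit of the dimer interface, differed by 0.42 on a dim probe with raw intensities of 110.2 and 113.7 on the FLT3-ITD arrays.

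Assembly factors help to build the complexes without staying in them. The 8 that the symbol rule takes had a median of -0.05, ran from -0.25 to 0.05, and passed in neither fit. Ndufaf4, a complex I factor, averaged 9.79 ± 0.09 in FLT3-ITD and 10.04 ± 0.01 in pMIG (SD, n = 2 each). Ndufaf7, a methyltransferase that acts on complex I, differed by -0.14, Sdhaf4 by -0.21 and Ndufaf1 by 0.05.

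Differences were smaller among bright members than among dim ones. Among the 48 members with a mean signal of at least 10, a split made after the values were seen, the median size of the difference was 0.09, against 0.12 for all 1596 genes in that range. The variance trend and robust fit called 5 of these 48 (10.4%), against 19.7% of the 1596. Among the 29 members under that signal the median size was 0.25, against 0.20 for all 8352 genes there, and 2 were called (6.90%, against 8.69%). Replicates of a group differed by 0.11 in FLT3-ITD and 0.09 in pMIG at the median of the members, against 0.16 in both groups over all genes.

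**Figure D3:**
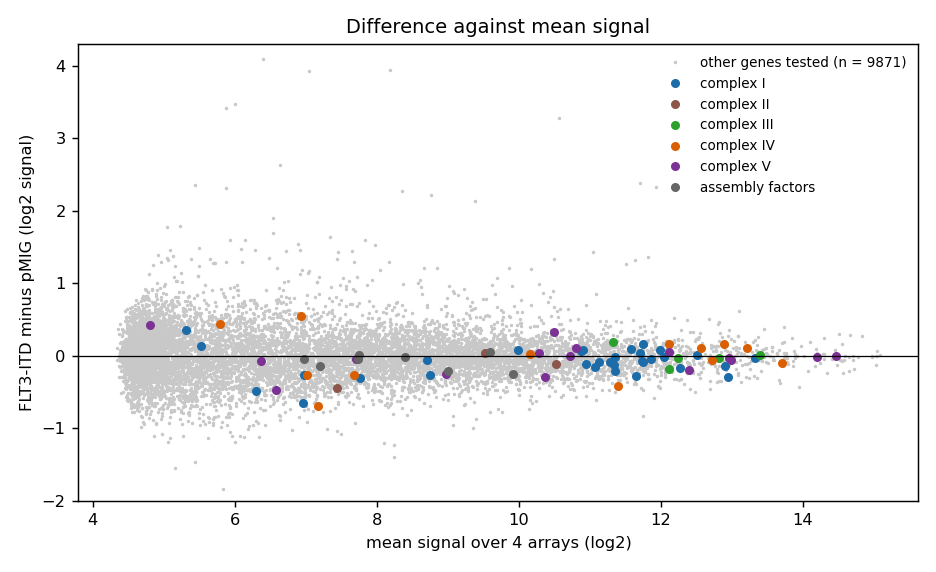
The horizontal axis is the mean log2 signal over the 4 arrays and the vertical axis the difference FLT3-ITD minus pMIG, with the members coloured by complex and the other genes tested in grey. The members lie close to 0 at high signal, and the values beyond 0.5 in size belong to Cox6b2, Ndufb9 and Cox6a2, all with a mean signal under 10.

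For 14 members more than 1 probe was detected, which gives the same gene more than 1 reading. The probes of Cox6a1, Uqcr10 and Ndufb6 differed from each other by at most 0.03. Ndufs4, an accessory subunit of the NADH-oxidising arm, had 4 detected probes that split into pairs. The probe with the highest signal differed by -0.08 and another by -0.04, with overlapping groups. The remaining pair read lower in FLT3-ITD. Probe ILMN_2663694 read 8.65 and 8.48 on the FLT3-ITD arrays, against 9.18 and 9.14 on the pMIG arrays, a difference of -0.60. Probe ILMN_2640944 had a mean of 9.98 for FLT3-ITD, against 10.34 for pMIG (difference -0.36). With all detected probes fitted together neither passed in limma (adjusted p = 0.180 and 0.251), and both passed with the variance trend and robust fit (adjusted p = 0.000789 and 0.0107). In the fit of all 14178 probes with the variance trend, 9 of the 96 member probes passed, 8 lower and 1 higher, against 8.34% of all probes.

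In 4 genes (Atp5j, Ndufb11, Ndufc1 and Ndufv3) the probes disagreed in sign. Ndufc1 differed by 0.16 on one probe and -0.14 on the other. The 2 widest gaps between probes involved dim ones. A dim probe of Atp5j had raw intensities of 112.0 and 115.4 in FLT3-ITD, against 163.4 and 113.2 in pMIG, and differed by -0.57, where the brightest Atp5j probe differed by 0.05. A dim Sdhc probe, not detected on FLT3-ITD replicate 1, had 94.4 and 102.6 in FLT3-ITD, against 151.7 and 102.9 in pMIG, and differed by -0.91. In both, pMIG replicate 1 alone was high.

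**Figure D4:**
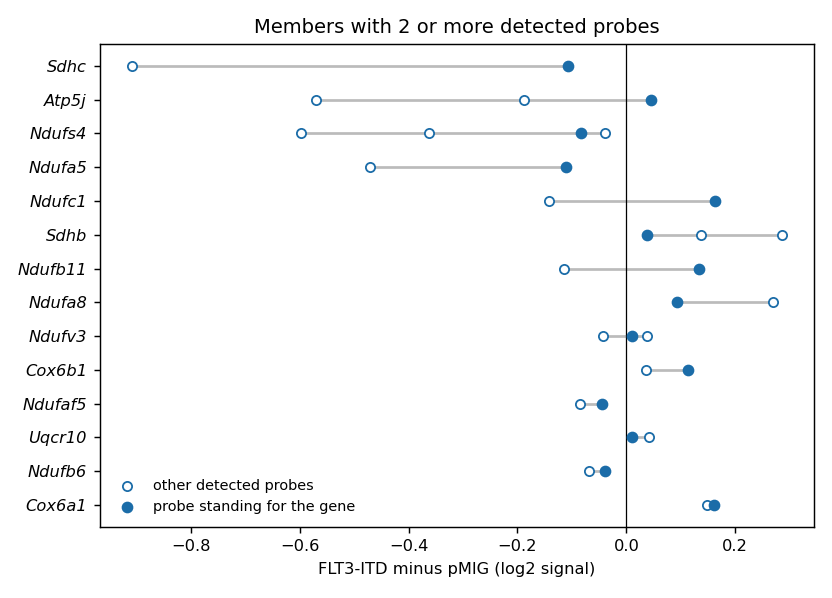
The horizontal axis is the difference in log2 signal, FLT3-ITD minus pMIG, and each row is 1 of the 14 genes with 2 or more detected probes. The filled circle is the probe that stands for the gene, open circles are its other detected probes, and rows are ordered by range, from 0.01 for Cox6a1 at the bottom to 0.80 for Sdhc at the top.

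The promoters of the members were read from the RefSeq table of mouse build GRCm38.p6, which gives 250 bases before and 50 bases after the gene start and matched 71 of the 84 genes. Respiratory chain genes are known to be activated by NRF1, by the ETS factor GABP (also called NRF2) and by YY1. A gene counted as holding a motif where any of its promoters in the table did, and some genes have more than 1. A core of the NRF1 site, TGCGCA, which is its own reverse complement, was present for 19 of the 71 genes (26.8%), against 15.4% of all tested genes in the table and 8.79% of all genes in it. The ETS motif CCGGAAG on either strand was present in 20 (28.2%), against 19.5% and 9.93%, and the YY1 motif AAGATGG on either strand in 10 (14.1%), against 8.49% and 7.28%. The ETS and YY1 motifs can share the letters AAG, and a match describes letters, not a bound site. The 250 bases before the start of the Cox6b pair are shown because the pair gave the lowest value of all members beside one near 0. Of the 5 members called with the variance trend and robust fit that have a promoter in the table, 1 held any of the 3 motifs in these 250 bases, namely Atp5h, which is shown too. Cox6b2, Ndufa1 and Ndufb8 held none. For Atp5d, with 2 promoters in the table, only the first was read in this way. It lies at an alternative start and held none. Of all 71 genes, read over all their promoters and with the 50 bases after the start as well, 39 held any of the 3 motifs. The 5 called members were read over the 250 bases alone, so these counts cannot be set against each other. Whether called members differ from the others in these motifs was not tested. Sequences run 5′ to 3′ on the gene's strand, with the reverse complement of the ETS motif in capitals.
Cox6b2: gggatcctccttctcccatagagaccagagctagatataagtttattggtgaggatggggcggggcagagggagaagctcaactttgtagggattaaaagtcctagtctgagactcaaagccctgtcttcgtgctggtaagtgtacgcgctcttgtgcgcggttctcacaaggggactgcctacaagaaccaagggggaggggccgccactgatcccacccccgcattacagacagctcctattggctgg
Cox6b1: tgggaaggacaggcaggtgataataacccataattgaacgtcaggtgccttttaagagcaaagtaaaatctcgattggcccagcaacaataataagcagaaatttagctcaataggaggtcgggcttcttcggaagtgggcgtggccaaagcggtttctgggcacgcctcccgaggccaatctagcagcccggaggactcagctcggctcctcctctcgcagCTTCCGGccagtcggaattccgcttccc
Atp5h: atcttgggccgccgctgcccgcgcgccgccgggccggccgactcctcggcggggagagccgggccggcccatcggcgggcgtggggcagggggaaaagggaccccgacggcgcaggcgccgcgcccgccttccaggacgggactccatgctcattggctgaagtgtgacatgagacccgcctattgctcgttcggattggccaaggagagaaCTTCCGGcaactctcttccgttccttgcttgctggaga
The Cox6b2 stretch lies at chr7:4753095-4753344 on the minus strand and held none of the 3 motifs. Cox6b1 lies on the same chromosome, with its stretch at chr7:30626115-30626364 on the minus strand, and held 1 ETS motif, as did Atp5h at chr11:115419920-115420169 on the minus strand.

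Genes that work around the respiratory chain were read in the same fits. Of 36 detected assembly factors and partners outside the symbol rule, 0 passed in limma (0.201% of all genes), with 5 at an unadjusted p under 0.05 (13.9%, against 18.0% of all genes). The variance trend and robust fit called 5 lower and 2 higher (19.4%, against 10.5% of all genes). Their median was -0.14, the lowest of the lists. Coa6, which helps bring copper to complex IV, read 8.38 and 8.23 on the FLT3-ITD arrays, against 9.02 and 8.77 on the pMIG arrays (difference -0.59, SE 0.14, adjusted p = 0.176 in limma). Dhodh, a pyrimidine synthesis enzyme that feeds electrons to ubiquinone, differed by -0.49. Both passed with the variance trend and robust fit (adjusted p = 0.000751 and 0.00384).

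Of 15 detected genes of pyruvate dehydrogenase and the citric acid cycle, 0 passed in limma, with 2 at an unadjusted p under 0.05 (13.3%, against 18.0% of all genes). The variance trend and robust fit called 1 lower and 2 higher (20%, against 10.5% of all genes). Idh2, the mitochondrial NADP-dependent isocitrate dehydrogenase, read 9.79 and 9.94 on the FLT3-ITD arrays, against 10.60 and 10.43 on the pMIG arrays. The groups were well apart, and the difference of -0.65 (SE 0.13) had an adjusted p of 0.154 in limma and 6.55e-06 with the variance trend and robust fit. The 2 called higher, named after their values were seen, were Cs, the citrate synthase (difference 0.33, adjusted p = 0.363 in limma, and 0.0307 with the variance trend and robust fit), and Dlst, a subunit of 2-oxoglutarate dehydrogenase (difference 0.31, adjusted p = 0.317 in limma, and 0.026 with the variance trend and robust fit). Dlat, a core subunit of pyruvate dehydrogenase, differed by -0.48 and passed in neither fit.

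Among 13 detected regulators of mitochondrial biogenesis the median was -0.01. None passed in limma, and 2 had an unadjusted p under 0.05 (15.4%, against 18.0% of all genes). The variance trend and robust fit called 1 lower and 1 higher (15.4%, against 10.5% of all genes). Gabpa, the DNA-binding subunit of GABP, averaged 7.19 in FLT3-ITD and 6.60 in pMIG, both FLT3-ITD arrays being higher (difference 0.59, SE 0.17, adjusted p = 0.196 in limma, and 0.0297 with the variance trend and robust fit). With the mean of its probes the Gabpa difference was -0.05. Tfb1m, which modifies mitochondrial ribosomal RNA, differed by -0.45 (adjusted p = 0.212 in limma, and 0.0492 with the variance trend and robust fit).

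The 70 detected mitochondrial ribosomal protein genes had a median of -0.07, with 0 passing in limma, 4 at an unadjusted p under 0.05 (5.71%, against 18.0% of all genes), and 5 lower and 1 higher with the variance trend and robust fit (8.57%, against 10.5% of all genes). Mrps6, of the small subunit, differed by 0.41 and was the 1 called higher, and Mrpl39, of the large subunit, differed by -0.47 and passed in neither fit. Of 5 detected carriers and channels, 0 passed in limma, 1 had an unadjusted p under 0.05 (20%, against 18.0% of all genes), and Slc25a3, which brings phosphate to the ATP synthase, passed with the variance trend and robust fit at a difference of 0.35 (adjusted p = 0.00512). Vdac2, a channel of the outer membrane, differed by -0.14.

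**Figure D5:**
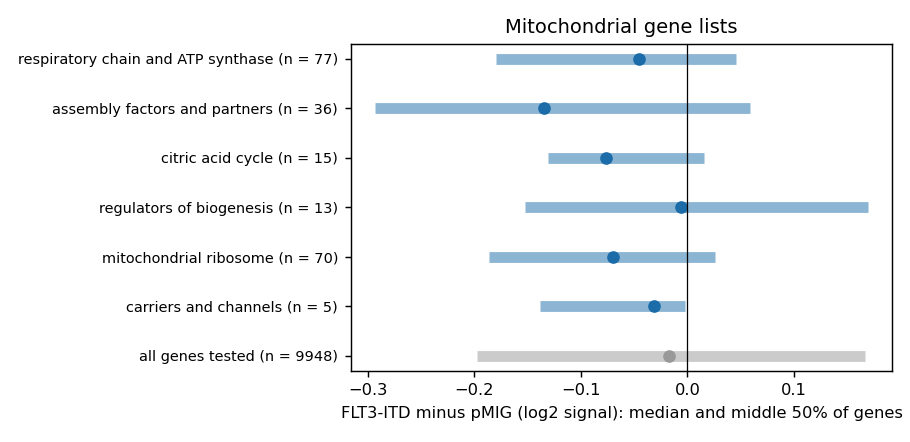
The horizontal axis is the difference in log2 signal, FLT3-ITD minus pMIG, for each list of mitochondrial genes, with dots at the median and bars over the interquartile range of its detected genes. All medians lie between -0.14 and 0, and all genes tested, in grey, have a median of -0.02.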

How the data were processed

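RNA of 4 samples, 2 FLT3-ITD and 2 pMIG, was hybridised to Illumina bead arrays as biotinylated cRNA, per the labels' protocols, and samples were grouped by their titles. The authors deposited a non-normalized intensity and a detection p-value for each probe, per the file headers. A second deposited table holds log2 values whose making is not given in the sources used here. It ranked probes within each array as the intensities did (rank correlation 1) and was used as an alternative.

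Here, intensities were background-corrected by normexp from the detection p-values (limma 3.58.1, statmod 1.5.0, R 4.3.3; offset 16), log2-transformed and quantile-normalized. Probes detected at p under 0.05 on 2 or more arrays were kept. Of the 26512 probes, 24279 had 1 gene symbol, 0 several and 2233 none listed, and 22988 matched the reference gene table, which changed 0 symbols. The probe of highest mean signal stood for its gene, giving 9948 genes. The two-sided moderated test of limma (lmFit, eBayes) set FLT3-ITD against pMIG, and p-values were adjusted by Benjamini and Hochberg's method across the 9948 genes, with a threshold of 0.05. The steps were tested on simulated data. Deviations of arrays with the same replicate number correlated at -0.02 across genes, so the numbers were not taken as pairs.

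Named genes were those past the threshold, the 4 of largest statistic and the brightest in each complex, a catalytic core, isoform sets, genes whose probes disagree in sign and 2 of each other list. Ndufa1, Ndufs3, Ndufb6, Cs, Dlst, and Ndufs4 with its probes, were chosen after their values were seen. Members and lists were chosen with earlier results of these data known. The number of arrays limits the precision. Background correction, scaling, filtering, probe choice, variance model, replicate block and single arrays were varied, as the closing section describes.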

Additional observations from a re-analysis of the deposited data

How the results depend on the processing

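In several other settings 0 members passed as well, but few genes of any kind did. All genes passed at 0.714% with median scaling, 0.382% with the deposited log2 values and 0.0646% with no filter on dim probes. The share was 0.868% with detection on all 4 arrays and 0.412% with the mean of the probes of a gene. At such shares a count of 0 says little about the members. With the replicate number as a block, 0 members passed, where 0.0603% of all genes did, and the median stayed at -0.05. The count was 5 with no background correction, where 9.03% of all genes passed, 1 with an offset of 50 (1.3%, against 3.93% of all genes), and 7 (9.09%) both with a variance trend (10.3% of all genes) and with a variance trend and robust fit (10.5%). The members' median of -0.0455 was -0.0361 with no background correction, -0.0649 with median scaling, where that of all genes was -0.0389, -0.0358 with no filter, -0.0545 with the mean of probes and -0.0309 for members with a mean signal of 10 or more, a choice made after seeing the data. With 1 array left out it lay between -0.0634 and -0.0300, and groups were apart in 52 to 63 members rather than 40, since fewer arrays have to separate. There 44.2% to 53.2% of members were apart lower and 23.4% to 29.9% higher, against 38.9% to 40.1% and 35.2% to 36.4% of all genes. Of 770 values of 55 named genes, 702 kept their sign and side of the threshold, 40 passed under the alternative alone and 28 changed sign, 26 of them smaller than their standard error both times. With median scaling the difference of Atp5b was 0.022, of Atp5g3 0.037, of Cox7a2l -0.0092 and of Uqcr10 -0.017. With the mean of probes Atp5j was at -0.24 and Gabpa at -0.051. With 1 array left out, sign changed for Atp5b (-0.037 to 0.030), Atp5g2 (-0.0063 to 0.080), Atp5g3 (-0.079 to 0.051), Atp5j (-0.026 to 0.12), Atp5o (-0.23 to 0.14), Cox7a2l (-0.0016 to 0.058), Ndufa13 (-0.074 to 0.0040), Ndufa4 (-0.15 to 0.029), Ndufaf1 (-0.11 to 0.21), Ndufb11 (-0.11 to 0.37), Ndufv3 (-0.061 to 0.081), Sdhb (-0.011 to 0.087), Uqcr10 (-0.085 to 0.11), Uqcrc2 (-0.077 to 0.012) and Uqcrh (-0.098 to 0.039). The cause of these shifts was not tested. A group left with 1 array was assumed to vary like the other. Dim probes lie near background and limit what can be read from them.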
